A study of Homo sapiens with 8 samples.

Results

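The 10 genes described here are ATF4, the transcription factor of the integrated stress response, and DDIT3, CEBPB, CEBPG, TRIB3, PPP1R15A, ASNS, CHAC1, SESN2 and GDF15, which act with it or under it. They were listed by name as genes of this pathway, with earlier results of these data known. Symbols were matched to the Ensembl identifiers of the raw counts, where the members are 10 of 58051 genes. All 10 passed the filter on low counts and were tested together with the other genes, 7550 in all.

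RNA was measured by 3' end sequencing in 8 samples of MDA231, a human breast cancer line derived from a triple-negative tumor. Parental cells carried no modification (2 samples). SDHBKO cells (3 samples) had the SDHB gene, which encodes the iron-sulfur subunit of succinate dehydrogenase (respiratory complex II), disrupted by TALEN nucleases in its first exon, with selection on hygromycin. SDHBKOSDHAlow cells (3 samples) came from the SDHB knockout and carried in addition an shRNA against SDHA, the catalytic subunit, with selection on puromycin. No group was treated, and all were harvested in complete medium at 70% confluency. The labels number the samples as biological replicates but do not say whether a group is a single clone or subline, and they name no empty vector for the SDHBKO samples. Differences between sublines, the shRNA vector and its selection therefore cannot be told apart from the loss of SDHB or SDHA, and p-values measure the spread between these samples.

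In the integrated stress response, kinases that sense amino acid shortage, unfolded proteins, double-stranded RNA or heme shortage phosphorylate the translation factor eIF2. Most protein synthesis then falls, while the ATF4 mRNA is translated more, and ATF4 protein, a basic leucine zipper factor, switches on genes for amino acid synthesis and uptake, tRNA charging and redox defense. Mitochondrial dysfunction is a known trigger of this response, and serine, proline and asparagine synthesis are among its classical outputs in proliferating cells. Since ATF4 is controlled to a large part at translation, the RNA levels given here do not measure its protein or activity, and no protein was analysed here.

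ATF4 binds DNA mainly as a heterodimer with C/EBP proteins, at C/EBP-ATF response elements. The stretches of promoter that hold such letters in the members are shown because they place the target genes in relation to ATF4. The RefSeq promoter windows (GRCh38.p14, 250 bases before to 50 after a start site) covered all 10 members. TGATGNAA, searched on both strands, was present in 3 of the 10, in 3.62% of all 35116 windows and in 4.46% of all genes with a window. TGACGTCA, the cyclic AMP response element, which reads the same on both strands and does not overlap the matches of TGATGNAA, was present in 1 of the 10, in 1.85% of windows and in 2.25% of genes. The matched letters are in capitals, and each sequence is given 5' to 3' on the strand of its gene.
ASNS: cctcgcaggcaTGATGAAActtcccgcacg
CHAC1: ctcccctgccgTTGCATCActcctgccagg
CEBPG: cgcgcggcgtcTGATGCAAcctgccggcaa
PPP1R15A: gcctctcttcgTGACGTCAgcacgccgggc

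The ASNS stretch lies at chr7:97872458-97872487 on the minus strand, with the matched letters 61 to 68 bases before the RefSeq start of that window. The CHAC1 stretch lies at chr15:40953251-40953280 on the plus strand and holds the element in the reverse orientation, 202 to 209 bases before its RefSeq start. The CEBPG stretch lies at chr19:33374060-33374089 on the plus strand, 35 to 42 bases before one of its RefSeq starts, and the PPP1R15A stretch lies at chr19:48872352-48872381 on the plus strand, 51 to 58 bases before its RefSeq start. The gene spans given below come from GENCODE and cover all transcripts of a gene, so that each of the 4 stretches lies inside the span of its gene, downstream of its outermost 5' end. A match describes the letters of the window and is not a measured binding site. A member without a match has these letters nowhere in its window, which says nothing of elements elsewhere.

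Gene counts ranged from 773042 to 1427141 per sample, so that 3 counts corresponded to 2.1 to 3.88 CPM (counts scaled to a common library size). SDHA, the knockdown target, was 8.45 to 17.8 CPM in SDHBKOSDHAlow cells, 135 to 151 CPM in SDHBKO cells and 74.0 to 91.6 CPM in parental cells, and it fell between SDHBKOSDHAlow and SDHBKO cells (log2 fold change -3.46, adjusted p = 1.16e-07 in edgeR). SDHB had 0 to 4 counts in every sample, and the 3' reads lie outside the edited exon and check nothing. All 8 genes listed as typical of MDA231 were detected (summed level 6024 to 7533 CPM). Of these 1 was called, the membrane linker MSN, higher in SDHBKOSDHAlow than in parental cells (0.84, adjusted p = 0.091 in edgeR). In this comparison edgeR called 0.914% of all genes, 0.225% higher. The MSN call depended on single libraries, as given below. The receptor genes ESR1 and PGR were at 0 in all samples, and 6 markers of blood, stroma, endothelium and liver summed to at most 4.63 CPM, with PTPRC, CD3E, COL3A1 and ALB at 0. The share of reads that mapped to several places was 14.4% to 16.1% in SDHBKO, 10.2% to 10.9% in parental and 9.72% to 12.3% in SDHBKOSDHAlow samples. The summed level of 8 luminal epithelial genes, carried by KRT8, was 212 to 293 CPM in SDHBKO against 167 to 175 CPM in parental and 169 to 188 CPM in SDHBKOSDHAlow samples.

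By its group means ATF4 RNA was highest in SDHBKO cells, and it was lower in SDHBKOSDHAlow cells, which came from the same knockout. ATF4 (ENSG00000128272, chromosome 22, 39519695 to 39522683, plus strand, GRCh38) had 138 and 150 counts in parental, 230, 212 and 302 in SDHBKO and 129, 252 and 147 in SDHBKOSDHAlow samples. On the CPM scale, normalized by TMM, these were 159.7 and 199 in parental, 315, 236 and 326 in SDHBKO and 156, 188 and 164 in SDHBKOSDHAlow samples. Every SDHBKO sample was above every sample of both other groups, which overlapped each other.

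The mean ATF4 level was 179 ± 27.9 CPM (SD, n = 2) in parental, 292 ± 49.2 CPM (n = 3) in SDHBKO and 169 ± 16.8 CPM (n = 3) in SDHBKOSDHAlow cells. It fell between SDHBKOSDHAlow and SDHBKO cells, by edgeR's quasi-likelihood test with Benjamini-Hochberg adjustment over all genes (threshold 0.1), with a log2 fold change of -0.78 (SE 0.20, 95% confidence interval -1.20 to -0.36, adjusted p = 0.075), or 0.581 times the SDHBKO level. The difference between SDHBKO and parental cells was 0.70 (SE 0.23, interval 0.22 to 1.18), or 1.63-fold, with an adjusted p of 0.103 in edgeR, just past the threshold, and 0.055 in DESeq2. SDHBKOSDHAlow and parental cells differed by -0.08 (SE 0.23, interval -0.56 to 0.40), which did not pass. The comparisons share the SDHBKO samples, so that a high SDHBKO level enters both folds.

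The call of lower ATF4 in SDHBKOSDHAlow cells depended on the samples in the fit. DESeq2 made it too (adjusted p = 0.026), and it was lost when the parental samples were left out and only the groups compared were fitted (-0.78, adjusted p = 0.131 in edgeR). It was also lost when either parental sample, SDHBKO replicate 1 or 3, or SDHBKOSDHAlow replicate 1 or 3 was left out (adjusted p of 0.133, 0.136, 0.258, 0.303, 0.234 and 0.261 in edgeR), while the log2 fold change kept to between -0.92 and -0.71 over the 8 omissions. Leaving out SDHBKOSDHAlow replicate 2, the deepest library, gave an adjusted p of 0.012 in edgeR for this difference and 0.029 for that between SDHBKO and parental cells. The latter also passed without SDHBKO replicate 2 (adjusted p = 0.070 in edgeR) and when only SDHBKO and parental samples were fitted. The share of multimapping reads and the luminal genes were also highest in SDHBKO cells, and their part in the ATF4 difference was not tested. The processed pseudogenes ATF4P1 to ATF4P4 had 0 counts in all samples.

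**Figure D1:**
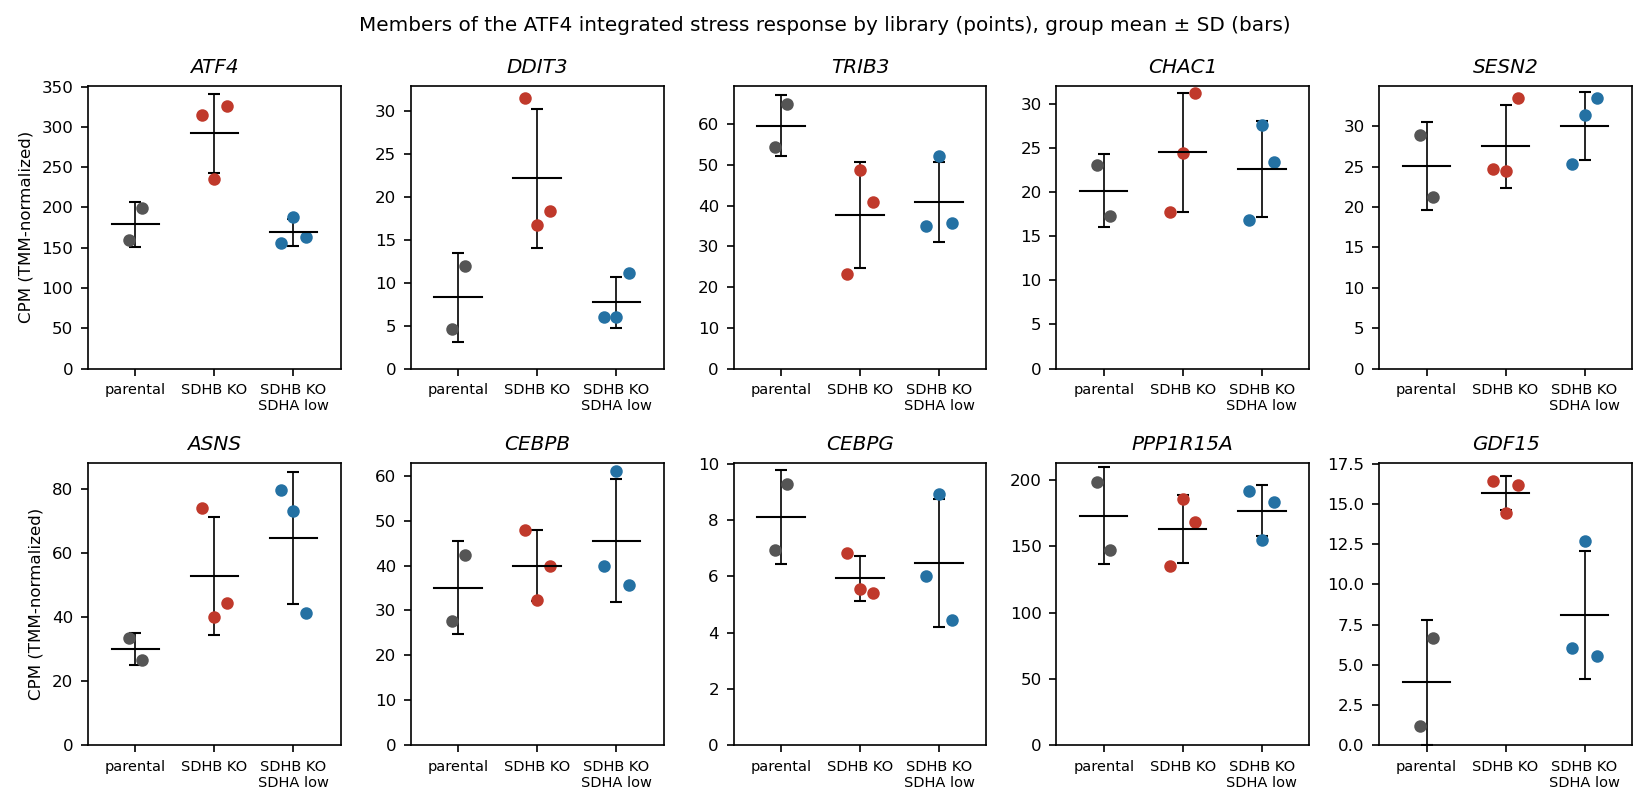
Levels of the 10 members by sample, in TMM-normalized CPM on a linear axis that starts at 0, for parental (n = 2), SDHBKO (n = 3) and SDHBKOSDHAlow cells (n = 3), with points for samples and bars for the mean and SD. ATF4 lies between 236 and 326 CPM in SDHBKO samples and at 199 CPM or lower in all others, whereas PPP1R15A overlaps in all groups.

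**Figure D2:**
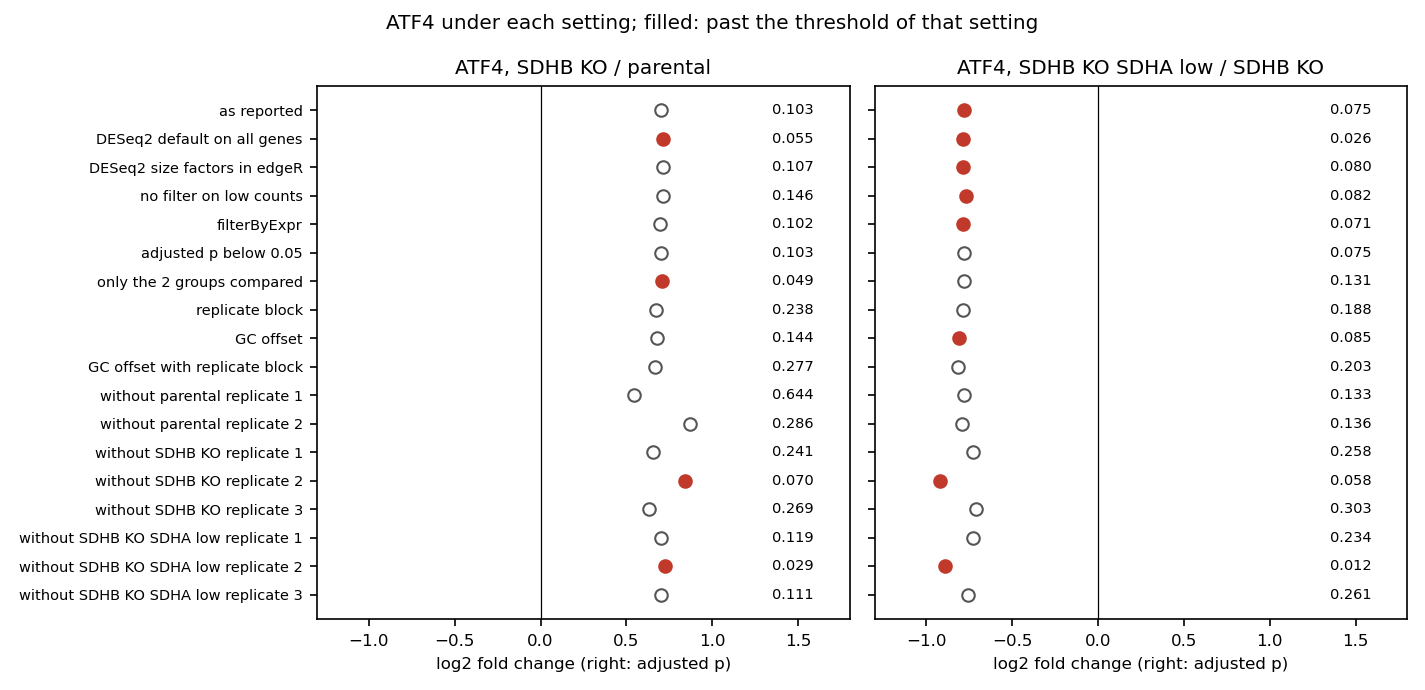
Log2 fold change of ATF4 (horizontal axis, edgeR unless named) in SDHBKO against parental and SDHBKOSDHAlow against SDHBKO cells under the main settings and each alternative, with filled points where the adjusted p passed the threshold. The difference between SDHBKOSDHAlow and SDHBKO cells stays between -0.92 and -0.71 while its call comes and goes.

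Among the zipper factors that pair with ATF4 or follow it, DDIT3 had the ATF4 order of groups, with few counts. DDIT3 (CHOP, a C/EBP-related factor linked to cell death under lasting stress; ENSG00000175197, chromosome 12, 57516588 to 57521737, minus strand) had 4 and 9 counts in parental, 23, 15 and 17 in SDHBKO and 5, 8 and 10 in SDHBKOSDHAlow samples. These correspond to 4.63 and 11.9, to 31.5, 16.7 and 18.3, and to 6.03, 5.97 and 11.1 CPM. All SDHBKO samples were above all others, and parental and SDHBKOSDHAlow samples overlapped. The log2 fold change was 1.41 (SE 0.57, interval 0.22 to 2.61, adjusted p = 0.191 in edgeR) for SDHBKO against parental cells and -1.51 (SE 0.49, interval -2.53 to -0.49, adjusted p = 0.194) for SDHBKOSDHAlow against SDHBKO cells, so that neither passed. From the summed counts alone, 55 against 13 counts gave a ratio of 2.6 (95% exact interval 1.40 to 5.19) for SDHBKO to parental cells and 23 against 55 gave 0.352 (0.206 to 0.582) for SDHBKOSDHAlow to SDHBKO cells, intervals that cover counting error only. The last 500 bases of DDIT3 share 63 bases with MARS1 on the opposite strand.

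CEBPB and CEBPG, the C/EBP partners of ATF4, did not pass the test in any comparison. CEBPB (ENSG00000172216, chromosome 20, 50190830 to 50192668, plus strand) was at 27.8 and 42.5 CPM in parental, 47.9, 32.2 and 39.9 CPM in SDHBKO and 39.8, 61.2 and 35.7 CPM in SDHBKOSDHAlow samples. CEBPG (ENSG00000153879, chromosome 19, 33373685 to 33382686, plus strand), with the element TGATGCAA before one of its RefSeq starts, was at 6.94 and 9.29 CPM, at 6.84, 5.56 and 5.4 CPM and at 6.03, 8.95 and 4.46 CPM in the same order. CEBPB overlapped between all groups, and both parental samples of CEBPG were above all SDHBKO samples. With 4 to 12 counts per sample and a mean normalized count of 5.86, just above the minimum of 5, CEBPG gave a wide interval for SDHBKO against parental cells (log2 fold change -0.45, -1.80 to 0.91). For CEBPB this difference was 0.19 (SE 0.36).

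Neither feedback gene of the response passed the test in any comparison. PPP1R15A (GADD34), the phosphatase subunit that returns eIF2 to its unphosphorylated state (ENSG00000087074, chromosome 19, 48872212 to 48876059, plus strand), was at 199 and 147 CPM in parental, 135, 186 and 168 CPM in SDHBKO and 192, 155 and 184 CPM in SDHBKOSDHAlow samples. The groups overlapped fully, with means of 173 ± 36.5, 163 ± 25.5 and 177 ± 19.3 CPM. The SDHBKO to parental difference was -0.085 on the log2 scale (interval -0.57 to 0.40) and the SDHBKOSDHAlow to SDHBKO difference 0.11 (interval -0.32 to 0.55). The highest library was only 1.47 times the lowest.

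TRIB3, a pseudokinase that ATF4 and CHOP induce and that in turn restrains them (ENSG00000101255, chromosome 20, 362835 to 397559, plus strand), had its highest values in the parental cells. It was at 54.4 and 65.0 CPM in parental, 23.3, 48.9 and 41.0 CPM in SDHBKO and 35, 52.2 and 35.7 CPM in SDHBKOSDHAlow samples. Both parental samples were above all 6 others, and the knockout groups overlapped each other. The log2 fold change was -0.64 (SE 0.34, interval -1.34 to 0.055, adjusted p = 0.331 in edgeR) in SDHBKO and -0.52 (SE 0.33, adjusted p = 0.553) in SDHBKOSDHAlow against parental cells. These comparisons share the parental samples and neither passed.

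Of the metabolic targets, ASNS was higher in both knockout groups than in parental cells by its means, without passing the test. ASNS, which makes asparagine from aspartate and glutamine (ENSG00000070669, chromosome 7, 97851677 to 97872542, minus strand), carries TGATGAAA before a RefSeq start, as printed above. In its last 500 bases 489 are shared with an annotated gene on the same strand (ENSG00000284707), for which the count tables used here hold no row, so that these reads were not split between the pair. It was at 33.5 and 26.6 CPM in parental, 73.9, 40.02 and 44.2 CPM in SDHBKO and 79.7, 73.1 and 41.2 CPM in SDHBKOSDHAlow samples. All 6 knockout samples were above both parental samples, and the knockout groups overlapped. The differences from parental cells were 0.79 (SE 0.37, interval 0.021 to 1.56, adjusted p = 0.27 in edgeR) in SDHBKO and 1.10 (SE 0.36, interval 0.35 to 1.85, adjusted p = 0.199) in SDHBKOSDHAlow cells, the latter passing only when SDHBKOSDHAlow replicate 3 was left out (1.34, adjusted p = 0.094). SDHBKOSDHAlow and SDHBKO cells differed by 0.31 (interval -0.31 to 0.93). The ATF4 value in this comparison was -0.78, and whether the genes differ in their response was not tested.

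CHAC1 and SESN2 had no difference that passed. CHAC1, which degrades glutathione (ENSG00000128965, chromosome 15, 40952962 to 40956512, plus strand) and carries TTGCATCA before a RefSeq start, was at 23.1 and 17.3 CPM in parental, 17.8, 24.5 and 31.3 CPM in SDHBKO and 16.9, 27.6 and 23.4 CPM in SDHBKOSDHAlow samples. SESN2, a leucine-binding inhibitor of mTORC1 signaling (ENSG00000130766, chromosome 1, 28259518 to 28282491, plus strand), was at 28.9 and 21.2 CPM, at 24.6, 24.5 and 33.4 CPM and at 25.3, 31.3 and 33.4 CPM. Both genes overlapped between all groups. The SDHBKO to parental difference was 0.28 (interval -0.59 to 1.16) for CHAC1 and 0.13 (interval -0.65 to 0.91) for SESN2.

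GDF15, a secreted cytokine of the TGF-beta superfamily that mitochondrial stress is known to raise (ENSG00000130513, chromosome 19, 18374731 to 18389176, plus strand), had the largest SDHBKO to parental fold of the members, on very few counts. It had 1 and 5 counts in parental, 12, 13 and 15 in SDHBKO and 5, 17 and 5 in SDHBKOSDHAlow samples, or 1.16 and 6.64, 16.4, 14.5 and 16.2, and 6.03, 12.7 and 5.57 CPM. All SDHBKO samples were above all others, and parental and SDHBKOSDHAlow samples overlapped. The log2 fold change was 2.02 (SE 0.71, interval 0.55 to 3.49, adjusted p = 0.127 in edgeR) in SDHBKO against parental and -0.88 (SE 0.52, interval -1.96 to 0.20, adjusted p = 0.52) in SDHBKOSDHAlow against SDHBKO cells. Summed counts of 40 against 6 gave a ratio of 4.10 (exact interval 1.73 to 11.8, counting error only). Omitting parental replicate 1 brought the SDHBKO to parental value to 1.22 and omitting parental replicate 2 brought it to 3.61. This difference passed when SDHBKOSDHAlow replicate 2 was left out (adjusted p = 0.073 in edgeR) and when only SDHBKO and parental samples were fitted.

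**Figure D3:**
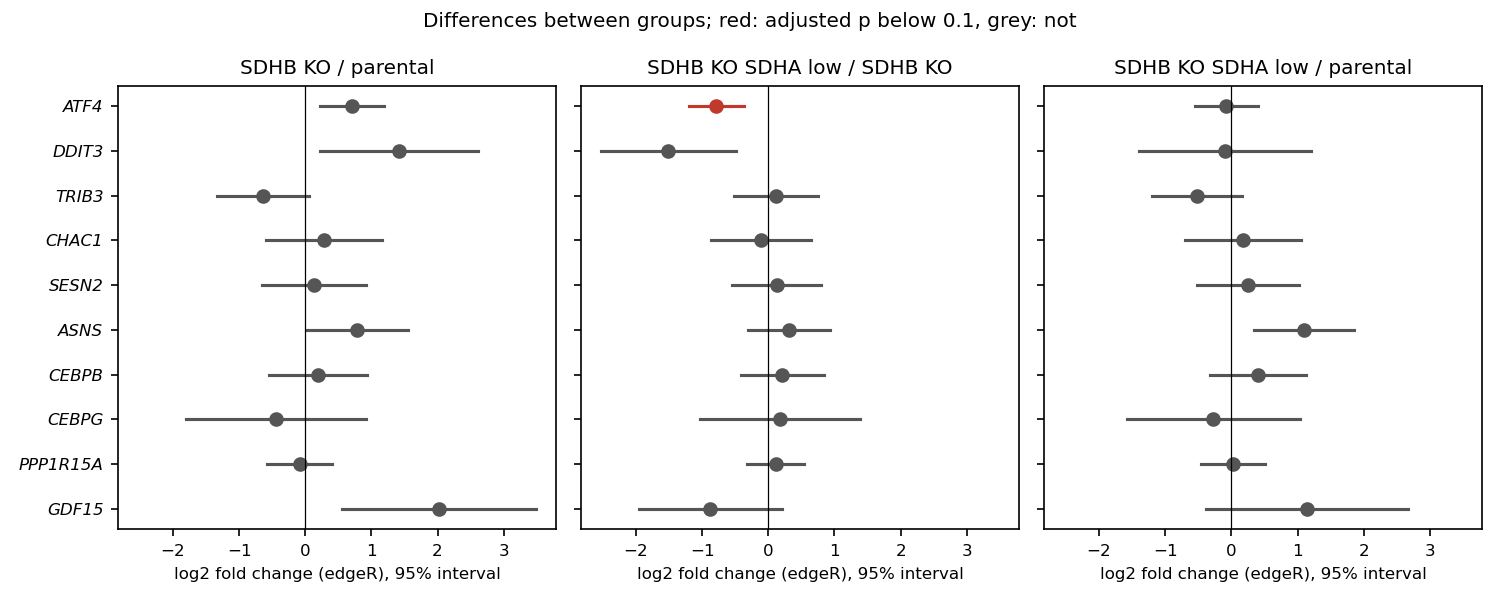
Log2 fold changes of the 10 members from edgeR with 95% confidence intervals (horizontal axis) in the 3 comparisons, in red where the adjusted p was below 0.1 and in grey where it was not. ATF4 in SDHBKOSDHAlow against SDHBKO cells (-0.78) is the only red point, and the intervals of GDF15, CEBPG and DDIT3, the members with the fewest counts, are the widest.

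Counted over the list, SDHBKO and parental cells differed in 0 of 10 members in edgeR, where 5.54% of all genes tested were called, 3.14% higher and 2.4% lower in SDHBKO cells. At an unadjusted p below 0.05, 4 of 10 passed (ATF4, DDIT3, ASNS and GDF15, all higher in SDHBKO cells), against 17.5% of all genes. The SDHBKO samples lay wholly above the parental samples in these 4 members, against 19.3% of all genes. They lay wholly below them in TRIB3 and CEBPG, against 18.6%, or 6 of 10 against 37.9% in either direction. The median log2 fold change in edgeR was 0.24 over the members and -0.00072 over all genes tested, with 7 members positive and 3 negative. DESeq2 called 1, ATF4, of the 4 members for which it gave an adjusted p. Shares of all genes called, here and below, are those of edgeR. The share that DESeq2 called is not given, so its counts of members have no such share beside them.

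Between SDHBKOSDHAlow and SDHBKO cells, 1 of 10 members was called, ATF4, against 1.51% of all genes in either direction (0.318% higher and 1.19% lower). ATF4 was also the 1 member called by DESeq2, of 7 with an adjusted p, and 2 members, ATF4 and DDIT3, passed at an unadjusted p below 0.05 in edgeR, against 12.1% of all genes. ATF4, DDIT3 and GDF15 were wholly below the SDHBKO samples, 3 of 10 against 8.69% of all genes, and no member was wholly above, against 8.7% (17.4% in either direction). The median was 0.12 over the members and 0.013 over all genes, with 6 members positive, and the 4 negative values were those of these 3 members and of CHAC1 (-0.11, adjusted p = 0.93 in edgeR).

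Between SDHBKOSDHAlow and parental cells, 0 of 10 members were called in edgeR, against 0.914% of all genes (0.225% higher and 0.689% lower), 1 passed at an unadjusted p below 0.05 (ASNS), against 12.3%, and DESeq2 called 0 of the 5 with an adjusted p. ASNS was wholly above the parental samples, against 15.2% of all genes, and TRIB3 wholly below, against 15.5%, or 2 of 10 against 30.7% in either direction. The median was 0.10 over the members and 0.017 over all genes. The mean level was highest in SDHBKO cells for 4 members, in SDHBKOSDHAlow cells for 4 and in parental cells for 2.

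The spread within groups differed among members. The pooled SD of log2 CPM was lowest for ATF4 (0.21) and PPP1R15A (0.22), the members with the most counts, and highest for DDIT3 (0.51) and GDF15 (0.55), against a median of 0.38 over all genes tested. The ratio of the highest to the lowest library was 14.2 for GDF15, 6.80 for DDIT3 and 2.09 for ATF4. In bulk RNA, fewer cells with a transcript and less transcript per cell cannot be told apart.

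The genes whose pattern over the 8 samples was most like that of ATF4, by the root mean square difference of centered log2 CPM, were SNRPB (0.117), the pseudogene PRELID1P6 (0.130) and BORCS6 (0.132). SNRPB, a core protein of spliceosomal snRNPs, was at 546 ± 129, 1009 ± 128 and 585 ± 105 CPM in parental, SDHBKO and SDHBKOSDHAlow cells, and BORCS6, a subunit of the lysosome-positioning BORC complex, at 53.9 ± 2.61, 91.6 ± 7.02 and 52.3 ± 0.81 CPM. PRELID1P6 rested on few counts, at 4.97 ± 0.48, 10.6 ± 1.5 and 5.30 ± 1.6 CPM in the same order, where 3 counts are 2.1 to 3.88 CPM. No other member was among the nearest genes. Of 7549 genes ranked, CHAC1 was at place 1685, CEBPB at 1887, DDIT3 at 1916, SESN2 at 2135 and CEBPG at 2648. PPP1R15A was at place 3294, GDF15 at 3618, ASNS at 4680 and TRIB3 at 5313. The distance is not scaled to the size of a gene's own differences. A gene that varies little can therefore rank before one with the ATF4 order of groups, as CHAC1 and CEBPB did before DDIT3.

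Upstream of ATF4, no gene passed. None of 5 tested eIF2 kinases and sensors (of 8 listed) and none of 11 tested subunits of eIF2, its exchange factor eIF2B and its phosphatases (of 14) was called in any comparison in edgeR or by DESeq2. At an unadjusted p below 0.05 they numbered 1 and 2 in SDHBKO against parental, 0 and 1 in SDHBKOSDHAlow against SDHBKO and 1 and 1 in SDHBKOSDHAlow against parental cells. Over all genes tested, 17.5%, 12.1% and 12.3% passed at this unadjusted p in the same order of comparisons. The shares called by edgeR were 5.54%, 1.51% and 0.914%, and both sets of shares apply to each list below. The largest difference among kinases and sensors was that of EIF2AK2 (PKR, the kinase activated by double-stranded RNA), at a mean of 20.0 CPM in parental, 5.75 CPM in SDHBKO and 5.67 CPM in SDHBKOSDHAlow cells (log2 fold change -1.83, adjusted p = 0.152 in edgeR, and -1.93, adjusted p = 0.227). EIF2AK2 rested on few counts, 22 and 11 in parental, 7, 4 and 3 in SDHBKO and 7, 1 and 7 in SDHBKOSDHAlow samples. Among the subunits the largest difference was that of EIF2S3, the gamma subunit of eIF2, in SDHBKOSDHAlow against parental cells (-0.90, adjusted p = 0.56 in edgeR, 3 to 20 counts per sample). EIF2AK3 (PERK), the protease gene OMA1 and IMPACT had 0 to 7 counts and were not tested. Median log2 fold changes in SDHBKO against parental cells were -0.04 for both lists.

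Of 16 tested zipper factors and partners (of 22), ATF5 rose and FOSL1 fell in SDHBKO against parental cells, and JUNB rose in SDHBKOSDHAlow cells against both other groups. ATF5, a relative of ATF4 that is also translated under eIF2 phosphorylation, was at 32.4 and 30.5 CPM in parental, 126, 67.8 and 75.5 CPM in SDHBKO and 56.7, 64.2 and 56.8 CPM in SDHBKOSDHAlow samples. All SDHBKO samples were above all others (log2 fold change 1.5, SE 0.32, adjusted p = 0.017 in edgeR against parental cells), and the SDHBKOSDHAlow to SDHBKO difference of -0.58 did not pass (adjusted p = 0.375). FOSL1, an AP-1 subunit, was 421 ± 17.2, 230.2 ± 37.4 and 306 ± 73.9 CPM in the 3 groups (-0.87 in SDHBKO cells, adjusted p = 0.050 in edgeR). JUNB, another AP-1 subunit, was 51.0 ± 6.7, 61.7 ± 8.2 and 115 ± 17.7 CPM (0.91 against SDHBKO and 1.18 against parental cells, adjusted p = 0.069 and 0.070 in edgeR). ATF3, FOS and NFE2L2 were among 6 genes with 0 to 10 counts that were not tested.

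The biosynthetic targets gave 1 call in each of these comparisons. Of 10 tested genes of serine, one-carbon, proline and asparagine synthesis (of 14), PSAT1 fell in SDHBKO against parental cells and SHMT2 fell in SDHBKOSDHAlow against SDHBKO cells. PHGDH, ALDH1L2, CTH and CBS had 0 to 12 counts and were not tested. PHGDH had 12 and 10 counts in the parental samples and 0 in every SDHBKO and SDHBKOSDHAlow sample. ALDH1L2 and CBS were at 0 in all samples, and CTH had 0 to 4 counts. PSAT1, the aminotransferase of serine synthesis, was 68.8 ± 22.2 CPM in parental, 25.3 ± 11.3 CPM in SDHBKO and 40.3 ± 6.0 CPM in SDHBKOSDHAlow cells (-1.42, adjusted p = 0.039 in edgeR). SHMT2, the mitochondrial serine hydroxymethyltransferase, was 243 ± 1.8, 377 ± 45.3 and 218 ± 20.7 CPM, highest in SDHBKO cells as ATF4 was (-0.79, adjusted p = 0.046 in edgeR). DESeq2 called SHMT2 in SDHBKO against parental cells as well (0.64, adjusted p = 0.049, against 0.112 in edgeR) and gave no adjusted p for PSAT1. In SDHBKOSDHAlow against parental cells both tools called 0 of the list, and 1 passed at an unadjusted p below 0.05 in edgeR. The list's median was 0.29 in SDHBKO against parental and -0.03 in SDHBKOSDHAlow against SDHBKO cells.

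Of 8 tested amino acid transporters (of 12), SLC7A5, the large neutral amino acid carrier, rose in SDHBKO against parental cells, from 158 ± 15.3 to 271 ± 59.9 CPM (0.78, adjusted p = 0.092 in edgeR). It was 232 ± 41.5 CPM in SDHBKOSDHAlow cells. The list's median was -0.30, opposite in sign to SLC7A5. Of 14 cytosolic aminoacyl-tRNA synthetases, which charge tRNAs and are classical ATF4 targets, all tested, 1 fell in SDHBKO cells, VARS1, from 341 ± 1.7 to 215 ± 9.4 CPM (-0.67, adjusted p = 0.083 in edgeR), and the median was -0.28. In the other comparisons edgeR and DESeq2 called 0 of either list, with 2 transporters and 4 synthetases at an unadjusted p below 0.05 in SDHBKOSDHAlow against SDHBKO cells and 4 and 0 in SDHBKOSDHAlow against parental cells.

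Among other ATF4 and CHOP effectors (10 tested of 24), EIF4EBP1, an inhibitor of cap-dependent translation, fell in SDHBKOSDHAlow against SDHBKO cells, with 151 ± 1.1, 220.4 ± 34.1 and 126 ± 9.7 CPM in parental, SDHBKO and SDHBKOSDHAlow cells (-0.80, adjusted p = 0.069 in edgeR). It had the same order of group means as ATF4. The list's median in this comparison was -0.08. In SDHBKO and in SDHBKOSDHAlow against parental cells both tools called 0, and 2 passed in each at an unadjusted p below 0.05 in edgeR. A further 13 genes of the list, FGF21, STC2 and VEGFA among them, had 0 to 9 counts and were not tested.

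The branches of the stress response beside ATF4 were read from 2 more lists. Of 12 tested endoplasmic reticulum chaperones driven by ATF6 and XBP1 (of 15), CALR (log2 fold change 0.89, adjusted p = 0.035 in edgeR), SDF2L1 (0.97, adjusted p = 0.073) and HYOU1 (0.87, adjusted p = 0.084) rose in SDHBKO against parental cells, and HSP90B1 fell (-1.3, adjusted p = 0.073). The HSP90B1 groups overlapped, since the parental samples were at 122 and 42.5 CPM, and without parental replicate 1 its value was -0.35 (adjusted p = 0.878 in edgeR). The calls in this comparison numbered 4 of 12, against 5.54% of all genes, and 5 passed at an unadjusted p below 0.05 in edgeR, against 17.5%. The list's median was 0.07. In SDHBKOSDHAlow against SDHBKO cells edgeR called 0 of the 12 (2 at an unadjusted p below 0.05, median 0.08) and DESeq2 called XBP1, a transcription factor of the unfolded protein response (0.63, adjusted p = 0.082, against 0.155 in edgeR). In SDHBKOSDHAlow against parental cells edgeR also called 0, and DESeq2 called CALR (0.70, adjusted p = 0.090, against 0.175 in edgeR). Of the 12, 5 passed at an unadjusted p below 0.05 in edgeR, against 12.3% of all genes. Values were positive for 10 of 12, against 3882 of 7550 genes, with medians of 0.19 and 0.017. Of 9 tested mitochondrial chaperones and proteases (of 10) none was called in any comparison by edgeR or DESeq2, and 2, 1 and 2 passed at an unadjusted p below 0.05 in SDHBKO against parental, SDHBKOSDHAlow against SDHBKO and SDHBKOSDHAlow against parental cells. The largest difference there was -1.23, for YME1L1 in SDHBKOSDHAlow against parental cells (adjusted p = 0.323 in edgeR, 6 to 23 counts per sample).

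Calls of these other genes depended on single libraries too. The calls of ATF5, FOSL1, PSAT1, SLC7A5, VARS1, CALR, SDF2L1 and HYOU1 in SDHBKO against parental cells were lost without parental replicate 1, parental replicate 2 or SDHBKO replicate 1. Those of FOSL1, VARS1 and HYOU1 were lost without SDHBKO replicate 2 or 3 as well, those of SLC7A5, SDF2L1 and HSP90B1 without SDHBKO replicate 3, that of HSP90B1 without SDHBKO replicate 1 and that of SLC7A5 without SDHBKOSDHAlow replicate 1. SHMT2 and EIF4EBP1 lost theirs in the same 6 omissions as ATF4. JUNB against SDHBKO cells lost its call in each of 8 omissions (adjusted p of 0.101 to 0.295 in edgeR), and against parental cells without either parental sample or SDHBKOSDHAlow replicate 1. MSN lost its call without either parental sample, SDHBKO replicate 1 or 3, or SDHBKOSDHAlow replicate 1. The log2 fold changes of all these genes kept their sign in every omission.

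**Figure D4:**
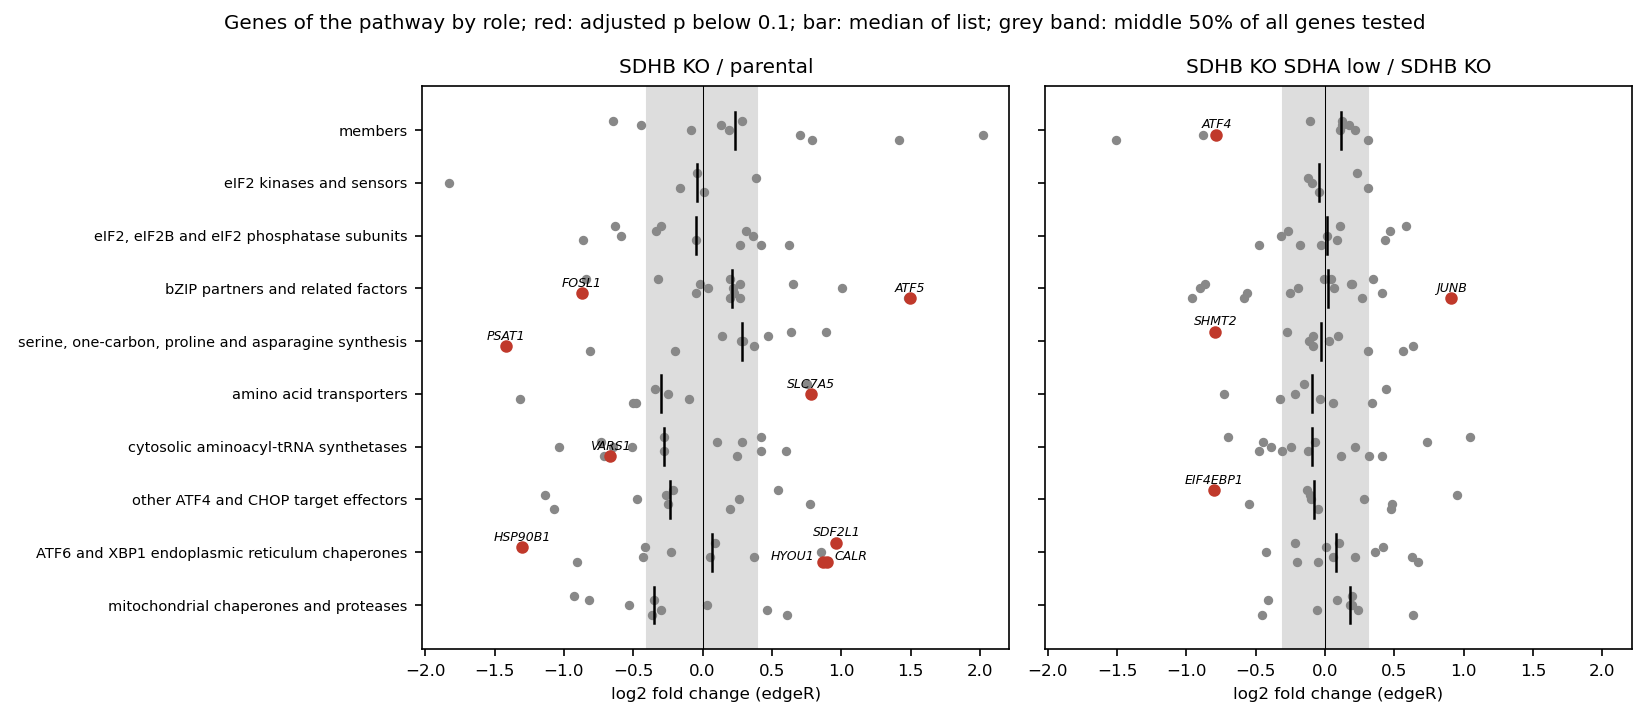
Log2 fold changes from edgeR (horizontal axis) of the members and 9 other lists of the pathway, in SDHBKO against parental and SDHBKOSDHAlow against SDHBKO cells, with red, named points where the adjusted p was below 0.1, vertical bars for list medians and a grey band for the middle of all genes tested (first to last quartile). ATF5 (1.5) is the farthest called gene to the right and PSAT1 (-1.42) to the left, and the list medians lie inside the band.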

How the data were processed

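The authors made 3' end libraries (Lexogen QuantSeq FWD), trimmed reads with Trimmomatic, removed ribosomal and mitochondrial reads with Sortmerna, aligned to GRCh38 and counted per gene with STAR 2.5.2b. The raw counts they deposited were the values tested. The deposited normalized signal, counts divided by a DESeq2 size factor per sample, was not tested, and the files of SDHBKO replicates 1 and 3 are exchanged in it relative to the raw counts. Rows that name no gene (23.9% of all reads) were left out.

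Genes with a mean normalized count above 5 (7550 of 58051) were fitted with edgeR 4.0.16 in R 4.3.3 (TMM, quasi-likelihood, 3 groups and 8 samples in 1 fit). P-values were two-sided, adjusted by Benjamini-Hochberg within each comparison and called below 0.1. The SE is the log2 fold change divided by the square root of F, and log2 CPM used a prior count of 2. DESeq2 1.42.0, its size factors, other filters, 2-group fits, a GC offset, the replicate block and each sample left out in turn were alternatives. Those for named genes outside the members were added after the data had been seen. Scripts were tested on simulated counts, with changes set between SDHBKO and parental cells in genes with a mean above 10. Of 100 genes changed by 1 on the log2 scale, 34 were called in the right direction, and of 100 changed by 2, 95 were. In this simulation 15.1% of calls were false, more than the threshold of 0.1 aims at. With 34 of 100 changes of 1 called, absence of a call leaves room for changes near 1. All genes were simulated with 1 common dispersion. GDF15 and CEBPG, with mean normalized counts of 8.69 and 5.86, lie below the range of the changed genes, and DDIT3 (11.7) lies near its edge. For these members absence of a call leaves room for larger changes.

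The genes named are the members, SDHA and SDHB, the 3 genes most like ATF4, and from each list at most 4 genes called by edgeR per comparison or, with none called, the gene of largest difference. XBP1, called by DESeq2 alone, and the untested genes were chosen after their values were seen. Members and lists were chosen with earlier results of these data known. Symbols and positions came from GENCODE release 44 on GRCh38, and 166 of 167 listed symbols matched (C6orf48 did not). Counts behaved as stranded: of genes whose 3' end lies wholly under exons of the same strand 7.0% had over 40 counts, and under exons of the opposite strand 52.2%. Same-numbered samples did not deviate together (mean correlation -0.07 over 7 pairs, range -0.27 to 0.093), so that replicate numbers do not pair samples.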

Additional observations from a re-analysis of the deposited data

How the results depend on the processing

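Log2 fold changes of the members kept their direction in most settings, whereas calls did not. Members called numbered 0 in SDHBKO against parental cells (1 in DESeq2, 2 in the fit of these groups alone, 0 to 2 with a sample left out), and 1 in SDHBKOSDHAlow against SDHBKO cells (0 at an adjusted p of 0.05, in the fit of these groups alone, with the replicate block and with the GC offset and block, 0 to 1 with a sample left out). In SDHBKOSDHAlow against parental cells they numbered 0 to 1 with a sample left out.

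Genes called in SDHBKO against parental cells numbered 418, or 171 at 0.05, 777 in the fit of these groups alone, 199 with the replicate block, 235 with block and GC offset, and 0 to 846 with a sample left out. Between SDHBKOSDHAlow and SDHBKO cells there were 114, or 64, 64, 59, 68 and 39 to 375 in the same order. Between SDHBKOSDHAlow and parental cells there were 69, or 13, 7, 12, 16 and 4 to 173, and 152 with no filter.

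Leaving out a sample moved the members' median to 0.14 to 0.44, -0.16 to 0.12 and 0.062 to 0.185 in the 3 comparisons. SESN2 in SDHBKO against parental cells reversed to -0.017 with the GC offset and replicate block. With a sample left out, that difference was -0.069 to 0.37 for SESN2, -0.10 to 0.52 for CEBPB and -0.29 to 0.14 for PPP1R15A. Between SDHBKOSDHAlow and SDHBKO cells it was -0.13 to 0.35 for TRIB3, -0.31 to 0.10 for CHAC1, -0.10 to 0.36 for CEBPB, -0.19 to 0.38 for CEBPG and -0.0051 to 0.21 for PPP1R15A. Between SDHBKOSDHAlow and parental cells it was -0.24 to 0.076 for ATF4, -0.65 to 0.69 for DDIT3, -0.022 to 0.40 for CHAC1 and -0.18 to 0.26 for PPP1R15A. The causes were not tested. With the replicate block, ATF4 in SDHBKOSDHAlow against SDHBKO cells was -0.78 (adjusted p = 0.188 in edgeR). Depth limits DDIT3, CEBPG and GDF15, with at most 23 counts per sample. CEBPG did not pass edgeR's own filter on low counts and has no value there.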
